A study of Mus musculus with 24 samples.

Results

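The genes described here are the long noncoding RNAs that reached a substantial level in mouse oocytes or early embryos. They were chosen by annotation and level, as genes of the GENCODE M21 biotype lincRNA (long transcripts from between coding genes) with a mean of 10 FPKM or more in 1 or more of 8 groups. FPKM is a fragment count divided by transcript length and by the size of the library. These levels chose the members and are given as a description. The rule took 336 genes, Gm30564 was left out, and 335 remained of 5614 lincRNA genes and 55487 genes in all. The 8 groups were wild-type mice and Nlrp14 knockout mice at 4 stages, with 3 biological replicate libraries per group and 5 oocytes or embryos pooled in each library. The stages were the germinal vesicle oocyte (GV), the metaphase II egg (MII), the late zygote (PN5) and the 2-cell embryo (labelled 2cell). The strain, the age of the animals, the knockout allele and the sires of the embryos are not given in the sources used here. The series title connects the loss of Nlrp14 with infertile females and early embryos that stop developing.

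Mouse oocytes store RNA during growth, stop transcribing before maturation, and lose much of the stored RNA between the GV stage and the 2-cell stage. The embryo's own genome is transcribed weakly in the zygote and strongly in the 2-cell embryo, so stored and newly made RNA overlap in time. Many long noncoding RNAs of these cells are present in few other tissues, have no known function and carry only a clone or gene-model name. Long terminal repeats of retrotransposons are known to act as start sites of many transcripts in mouse oocytes and 2-cell embryos.

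The libraries held an estimated 7.65 to 12.29 M fragments, read from the size of the smallest steps in the FPKM values. One fragment on a transcript of 1 kb was worth 0.0814 to 0.131 FPKM. Nlrp14 itself, a member of the NLR family made in oocytes, measured 1876, 2014 and 1922 FPKM in wild-type GV libraries, against 22.2, 23.7 and 39.2 FPKM in knockout ones. It was lower in every knockout library than in every wild-type library at the other 3 stages too, the closest being the 2-cell stage, at 90.2, 129 and 98.99 FPKM against 25.9, 36.2 and 17.2 FPKM. Every knockout library still held some Nlrp14 signal, the lowest being 5.747 FPKM at PN5. The words with and without Nlrp14 therefore stand for the wild-type and knockout genotypes only. All 10 oocyte and egg markers measured were at 1 FPKM or more in every group. At the 2-cell stage they summed to 1172 to 1586 FPKM with Nlrp14 and to 3954 to 4772 FPKM without it, and at PN5 the ranges overlapped (5746 to 7800 and 6390 to 7661 FPKM). The 12 markers of the 2-cell embryo summed to 1174 to 1672 FPKM in wild-type 2-cell libraries, with 1981 to 3066 FPKM for the knockout, and 11 of the 12 were at 1 FPKM or more in both. The 14 markers of granulosa and cumulus cells summed to 25.6 to 38.3 FPKM in wild-type 2-cell libraries against 7.31 to 13.1 FPKM in knockout ones, and to 11.02 to 22.95 FPKM at the earlier stages. The 10 markers of sperm summed to 11.8 to 23.4 FPKM against 6.35 to 11.4 FPKM at the 2-cell stage, so neither sum overlapped between the genotypes there. Single genes were the largest part of both 2-cell sums. They were Tnfaip6 (means of 25.2 and 4.56 FPKM) for granulosa and cumulus cells and Ldhc (15.3 and 3.66 FPKM) for sperm. In each genotype 11 of the 14 granulosa and cumulus markers were under 1 FPKM there. At MII and PN5 that sum was mostly Cyp19a1, with group means of 14.4 to 19.1 FPKM. Markers of blood, stroma and oviduct had sums of 118 to 212 FPKM in wild-type 2-cell libraries against 31.7 to 45.2 FPKM, carried by Epcam, Hba-a1 and Hba-a2, while Hbb-bs and Hbb-bt were listed at 0 in all 8 groups. The part of these markers in the results was not tested. Knockout GV replicate 3 stood apart, with members summing to 16704.7 FPKM against 10573.4 and 11048.3 FPKM in the other two. The main results that use it are also given without it. Counts of members at 10 FPKM and of groups that do not overlap are given with it only.

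The first feature that members shared beyond level was the sequence of their 5′ ends. The first 200 nt of each member's longest GENCODE M21 transcript were compared with those of all members, and 80% identity or more over 50 nt or more was a match. Of the 335 members, 82 (24.5%) matched another member. Of the 5279 other lincRNA genes in the files, 191 (3.62%) matched a member. The matches joined into 11 groups, of which the 2 largest had 27 and 21 members on 15 and 11 chromosomes. The grouping used sequence only, and no repeat annotation was used, so the source of the shared sequence was not assigned.

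From the 27-gene group, 5 members are printed from nt 1 to nt 100 of the transcript, 5′ to 3′, because they share a stretch of sequence near the start although they lie on 4 chromosomes. Capitals mark a 12-nt run that 13 of the 27 carried.
Gm3143: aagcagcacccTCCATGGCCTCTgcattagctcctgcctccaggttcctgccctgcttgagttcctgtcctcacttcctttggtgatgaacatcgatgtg
Gm38025: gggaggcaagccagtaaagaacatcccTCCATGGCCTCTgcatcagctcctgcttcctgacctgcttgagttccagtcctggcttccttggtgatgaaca
Gm31925: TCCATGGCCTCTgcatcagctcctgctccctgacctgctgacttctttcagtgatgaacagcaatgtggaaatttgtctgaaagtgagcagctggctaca
Gm48704: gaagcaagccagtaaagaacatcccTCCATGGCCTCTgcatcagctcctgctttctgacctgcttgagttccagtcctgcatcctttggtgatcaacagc
Gm11846: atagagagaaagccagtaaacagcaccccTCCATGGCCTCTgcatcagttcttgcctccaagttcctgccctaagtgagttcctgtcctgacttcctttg

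The run TCCATGGCCTCT was in the first 200 nt of 48.1% of the group and in that of 0.233% of 5587 other lincRNA genes. The groups were formed by matching 5′ ends, which by itself favours a shared run. These shares, and those of the second run below, are a description. In GRCm38 these 5 genes lie at chr3:34699640-34716662 (Gm3143, minus strand), chr3:31341012-31345280 (Gm38025, plus), chr1:161890458-161903173 (Gm31925, plus), chr13:35543902-35545484 (Gm48704, plus) and chr4:12271399-12314583 (Gm11846, plus). Of the 351 pairs within the group, 110 matched directly, with a median of 93 aligned nt at 86.7% identity.

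The 21-gene group is shown the same way, with capitals on the 12-nt run ATCCTTGGACTT, which all 21 members carried and 0.393% of 5593 other lincRNA genes did.
Gm44693: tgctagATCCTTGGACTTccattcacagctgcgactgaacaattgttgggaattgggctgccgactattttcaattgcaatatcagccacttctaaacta
Gm29290: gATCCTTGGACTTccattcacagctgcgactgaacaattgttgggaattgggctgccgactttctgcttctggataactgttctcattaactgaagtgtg
Gm33466: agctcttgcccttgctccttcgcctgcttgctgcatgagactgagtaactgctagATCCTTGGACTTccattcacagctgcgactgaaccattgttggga
Gm45593: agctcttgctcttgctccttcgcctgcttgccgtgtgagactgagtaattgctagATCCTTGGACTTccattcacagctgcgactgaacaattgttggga
Gm48419: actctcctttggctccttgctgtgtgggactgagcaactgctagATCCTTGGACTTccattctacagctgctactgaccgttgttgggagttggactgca

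These genes lie at chr8:5436984-5440990 (Gm44693, minus), chr1:153939226-153941290 (Gm29290, plus), chr3:157720404-157726408 (Gm33466, minus), chr7:12825918-12828121 (Gm45593, plus) and chr13:67965483-67970239 (Gm48419, plus). All 210 pairs matched, with a median of 97 aligned nt at 94.5% identity. Fragments from stretches this alike may be assigned to the wrong gene, and Gm48419 is identical over its whole length to 2 other lincRNA genes, Gm48423 and Gm7969, so its level is uncertain.

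The 2 groups differed in timing. In the 27-gene group the wild-type mean peaked at GV in 16 genes, at MII in 3, at PN5 in 6 and at the 2-cell stage in 2. The median over its genes, stage by stage, was 30.6, 15.2, 25.3 and 11.8 FPKM. In the 21-gene group every gene had its highest mean at the 2-cell stage in both genotypes. At the wild-type GV, MII and PN5 stages 17, 20 and 16 of the 21 genes had a mean under 1 FPKM, and at the 2-cell stage they ranged from 8.29 to 148 FPKM. Matching lincRNA genes that the level rule did not take were looked at as well, where wild type reached 1 FPKM at any stage. The highest stage was GV in 14 of 21 such genes for the first sequence, and the 2-cell stage in 13 of 16 for the second. Over all 679 lincRNA genes outside the rule at that level, 39.5% were highest at GV and 47.4% at the 2-cell stage.

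Without Nlrp14 the medians of the first group were 32.2, 16.4, 11.5 and 30.2 FPKM in the same order of stages, and the GV one was 25.2 FPKM without knockout GV replicate 3. Its PN5 median was therefore below the wild-type one and its 2-cell median above it, and 13 of the 27 genes had their highest knockout mean at the 2-cell stage. The second group was at a median of 26.5 FPKM in wild-type and 30.8 FPKM in knockout 2-cell embryos. Gm44693, the member of this group with the highest mean, had 35.0, 28.7 and 51.4 FPKM in wild-type 2-cell libraries, below the 354.5, 188 and 154 FPKM of the knockout. Its highest mean was the knockout 2-cell one (232 FPKM), a choice that favours this order, so its values are a description. Of the 21 genes, 13 had a higher 2-cell mean in knockout than in wild type.

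**Figure D1:**
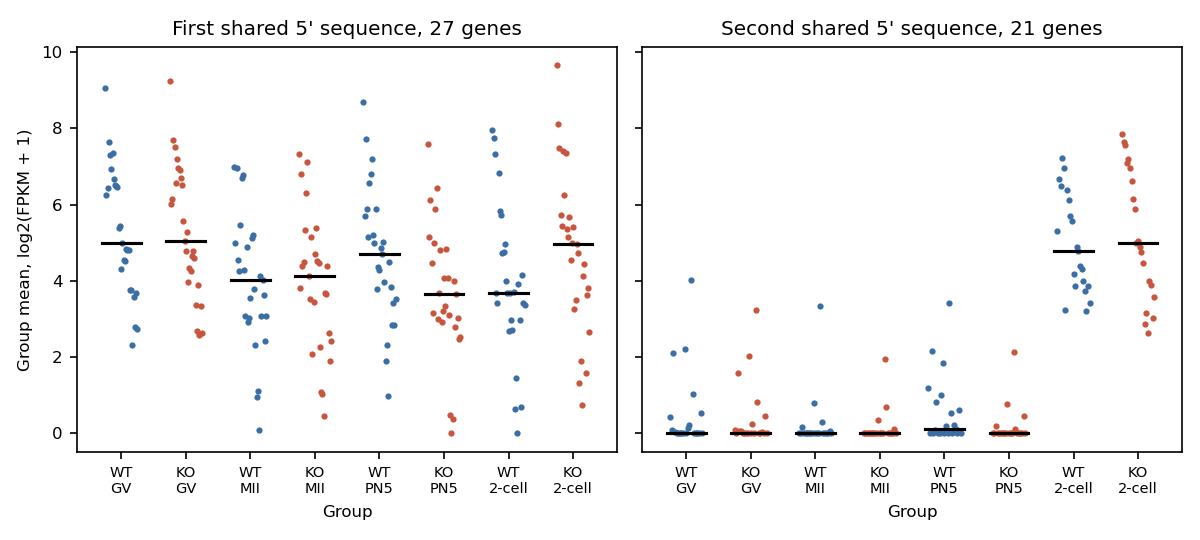
Group mean level, as log2(FPKM + 1), of the 27 genes of the first and the 21 genes of the second shared 5′ sequence, in wild type (WT, blue) and knockout (KO, red) at each stage; each point is a gene and the black line is the median. The first set is present from GV on and its median falls in knockout at PN5 (11.5 against 25.3 FPKM) and is higher in knockout at the 2-cell stage (30.2 against 11.8 FPKM), while the second set has a median near 0 until the 2-cell stage.

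Over all 335 members the wild-type mean peaked at GV in 153, MII in 27, PN5 in 55 and the 2-cell embryo in 100. In the knockout these numbers were 134, 23, 18 and 160, and 120, 27, 17 and 171 without knockout GV replicate 3. The stage of the highest mean was the same in both genotypes for 236 members (223 without that library), and 38 of those highest at PN5 in wild type were highest at the 2-cell stage in knockout. Members reached 10 FPKM through 1 group alone in 71 cases, through GV libraries alone in 63 and through 2-cell libraries alone in 84, and 57 members were at 10 FPKM in all 8 groups. At the edge of the rule, Gm40663 (10.03 FPKM in knockout MII) and 4933439N14Rik (10.01 FPKM in wild-type PN5) were just inside, and Gm46332 (9.999 FPKM) and Gm47882 (9.984 FPKM) were just outside. Together the members made up 3.31 to 3.66% of all FPKM in wild-type GV, 2.30 to 2.46% in wild-type MII, 2.61 to 2.76% in wild-type PN5 and 1.60 to 2.15% in wild-type 2-cell libraries. In knockout GV libraries the share was 2.83 to 3.66%, which overlapped wild type through knockout GV replicate 3 alone (3.66%). Without that library the shares were 2.83 and 2.92%, below all 3 wild-type GV libraries. The knockout share was also below all 3 wild-type libraries at MII (2.15 to 2.17%) and PN5 (2.05 to 2.22%). It was above all 3 at the 2-cell stage (3.07 to 3.52%).

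**Figure D2:**
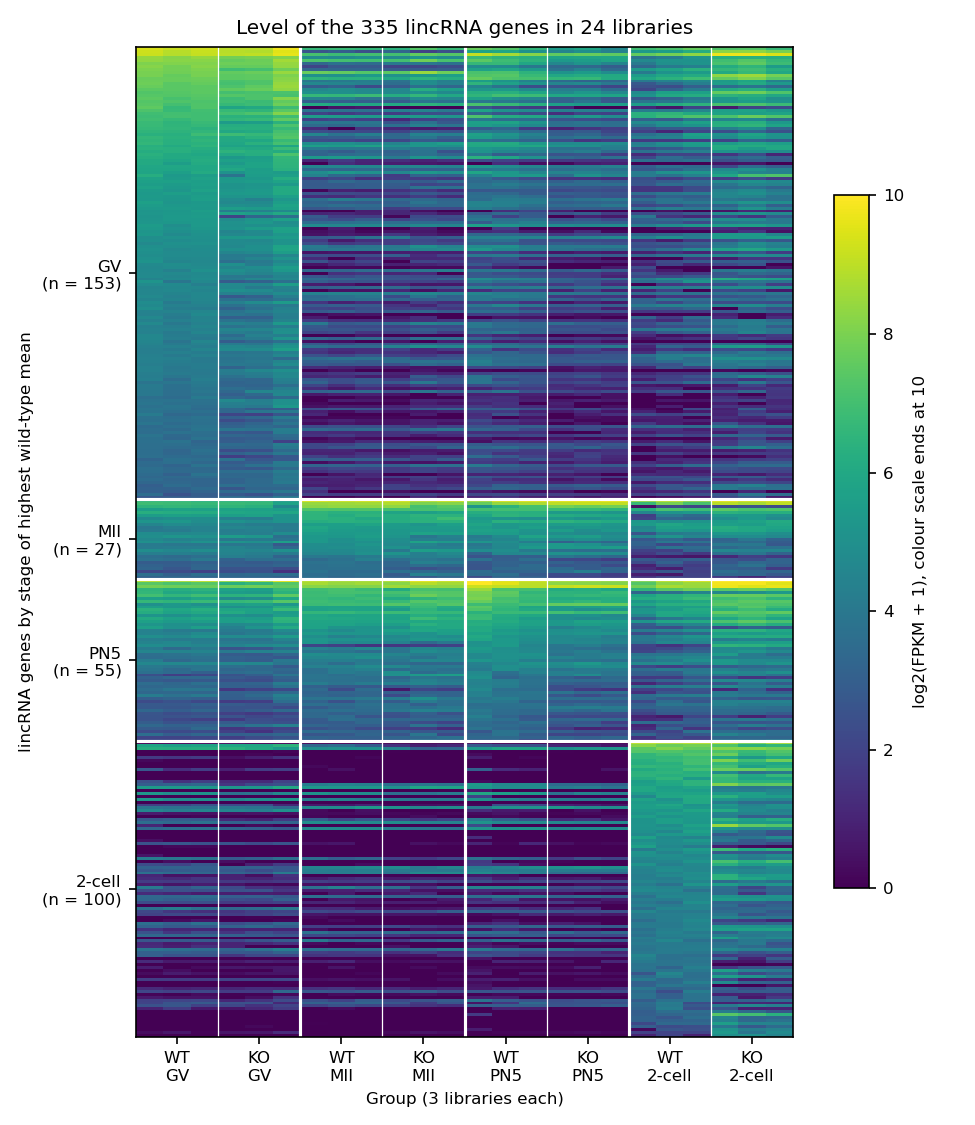
Level of the 335 genes (rows) in the 24 libraries (columns, 3 per group) as log2(FPKM + 1), with rows split by the stage of the highest wild-type mean and sorted by that mean. Darker colours are lower levels. Many of the 153 genes highest at GV are darker at MII in both genotypes, and many of the 100 genes in the lowest block are dark before the 2-cell stage.

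The most abundant member was AA545190 on chromosome 6, a gene model without a known function. At PN5 it had 1074, 736 and 585 FPKM with Nlrp14 and 388, 354 and 323 FPKM without. Its 2-cell values were 258, 491 and 622 FPKM, then 1225, 1421 and 1160 FPKM in the same order, so the genotypes did not overlap at either stage but stood in opposite order. Gm11381 on chromosome 13, the next by level, had the same order. At PN5 it was at 1106, 763 and 509 FPKM against 314, 298 and 282 FPKM, and in 2-cell embryos 161, 304 and 374 FPKM stood against 913, 937 and 735 FPKM. Gm3143, one of the 5 genes whose 5′ end is printed above, was at 581, 466 and 560 FPKM in wild-type GV libraries and at 868, 857 and 690 FPKM in knockout 2-cell libraries, its highest group. Gm839 and Gm1965 lie on chromosome 6 within a stretch of GRCm38, chr6:88950683-89216237, that holds 4 members, the largest set of neighbours within 100 kb. The 4 did not share 1 pattern. Gm839 and Gm1965 were present at every stage, with 2-cell means of 333 and 165 FPKM against 801 and 480 FPKM without Nlrp14. 4933427D06Rik was highest at PN5, with means of 26.1 FPKM and, without Nlrp14, 27.4 FPKM. Gm6507 was at or near 0 until the 2-cell stage, where it was at 52.5 FPKM in wild type and 20.7 FPKM in knockout. B020004C17Rik on chromosome 14 was the most abundant of the members that were under 1 FPKM before the 2-cell stage. No earlier library was above 0.3003 FPKM. Its 2-cell levels were 501, 445 and 473 FPKM with Nlrp14, overlapping the 445, 250.1 and 398 FPKM without it.

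Stage steps were tested in wild type alone with limma on log2(FPKM + 1), over every gene that 3 or more libraries of the comparison held at 1 FPKM or more, and a gene was called at an adjusted p under 0.05. All fold changes below are on this log2 scale, which understates changes of low genes. Because the rule used the levels of every group, each count is followed by that for the members that reached 10 FPKM at a stage outside the comparison. Those were chosen without the compared libraries.

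From GV to MII most members fell. Of 281 members tested, 180 fell and 68 rose, where 84.0% of 11610 genes tested changed, 52.8% as lower and 31.1% as higher. Of the 211 tested that reached 10 FPKM at PN5 or the 2-cell stage, 117 fell and 64 rose, so the share lower was close to that of all genes. The median change was -1.30 over the members and -0.50 over all genes. AC132133.2 went from 181, 103 and 152 FPKM at GV to 0, 0.451 and 0.623 FPKM at MII, a log2 change of -6.74 that is a description, since it is a member through GV levels alone. Gm43303 went from 597, 483 and 565 FPKM to 5.16, 7.01 and 4.50 FPKM, a change of -6.40 (adjusted p = 1.8e-08). Gm49622 and Gm48893 were the next largest falls, at -5.63 and -5.55. Gm48893 is uncertain, since its exons overlap those of Gm48892 on the other strand and the libraries do not mark strand. In all 4 genes no MII library came near a GV one.

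The largest rises were smaller. C86187 was at 98.6, 97.2 and 79.4 FPKM at GV and at 651, 574 and 600 FPKM at MII (log2 change 2.72, SE 0.098, adjusted p = 1.2e-07). Gm1070 rose by 1.79, D6Ertd474e by 1.74 and Gm1965 by 1.72. C86187 overlaps Gm31941 on the other strand and is uncertain for that reason. FPKM values are shares of a library, and neither the RNA per cell nor the number of molecules was measured. The length of poly(A) tails was not measured either. In pools of whole cells, fewer cells of a type and less RNA per cell cannot be told apart. A set of 105 members, at 10 FPKM or more in wild-type GV and more than 4-fold lower at MII, is called the cleared members below. The name stands for the lower FPKM, and loss of the RNA itself was not tested.

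Between MII and PN5 members that changed mostly rose. Of 252 tested, 64 rose and 3 fell, beside 14.2% of 9375 genes called, 9.80% as higher and 4.44% as lower. All 67 were among the 240 tested that reached 10 FPKM at GV or the 2-cell stage. Of the 87 cleared members tested, 46 rose and none fell, with a median change of 1.08 against -0.02 over all genes. These members were chosen for a low MII level, which by itself favours a later rise. Gm34045 was at 3.29, 2.69 and 1.73 FPKM at MII and at 34.3, 42.2 and 22.3 FPKM at PN5 (log2 change 3.23, SE 0.295, adjusted p = 0.0015). Gm43303, which had fallen at maturation, came back to 54.7, 58.9 and 33.3 FPKM, a change of 2.91. AC166350.2 rose by 2.90, though it too overlaps a gene on the other strand, Ston1. Gm32585 rose by 2.66. The falls were Gm1070 (-2.10), D030018L15Rik (-1.18) and 7420700N18Rik (-1.09). 7420700N18Rik overlaps Gm19096 on the other strand. Counts at this step moved with single libraries, to 20 members without wild-type PN5 replicate 2, 33, 27 and 31 without wild-type MII replicate 1, 2 or 3, and 109 without wild-type PN5 replicate 3.

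From PN5 to the 2-cell stage members changed in both directions. Of 318 tested, 89 rose and 104 fell, where 62.8% of 13398 genes changed, 48.0% upward and 14.8% downward. Among the 229 tested that reached 10 FPKM at GV or MII, 16 rose and 98 fell (42.8% lower). The median change was -0.38 over members and 0.70 over all genes. With median-of-ratios scaling it was -0.89 against 0.22, and the members called were 80 higher and 150 lower. B020004C17Rik had the largest rise, 8.76, a value that ran from 8.39 to 11.54 over the settings tried because its PN5 level was near 0. Gm48419 (7.20) and Gm33466 (6.85), both with the second shared 5′ sequence, followed. These 3, and Gm29290 below, are members through 2-cell levels alone, so their rises are a description. Gm29290, also of that group, was listed at 0 in all wild-type PN5 libraries and at 78.8, 103 and 123 FPKM at the 2-cell stage. The largest fall was Gm1070, from 35.5, 85.4 and 131 FPKM to 0.382, 3.94 and 3.22 FPKM (log2 change -4.61, SE 0.592, adjusted p = 0.00019). Gm47847 fell by 3.58, Gm34045 by 3.19 and 0610033M10Rik by 3.14. Without wild-type 2-cell replicate 1 or 2 the members called were 103 and 123. Replicate 1 was the lowest of its group for Gm1070, Gm47847 and 0610033M10Rik but not for Gm34045.

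Knockout and wild type were then compared at each stage. This addresses which long noncoding RNAs differ in the knockout, and when in development they do. The counts differed strongly between stages, from none at GV to 191 at the 2-cell stage.

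**Figure D3:**
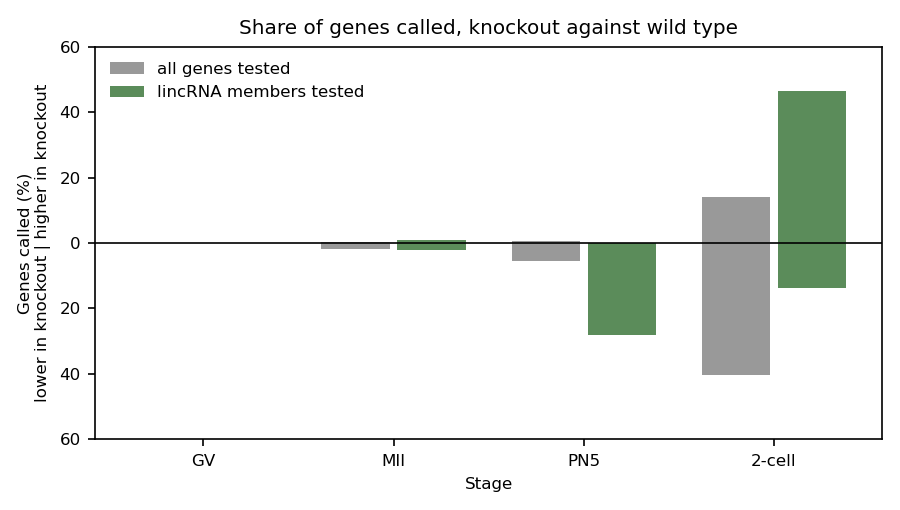
Share of genes called at each stage in the knockout against wild type (limma, adjusted p under 0.05), higher above the line and lower below it, for all genes tested (grey) and for the members tested (green). At the 2-cell stage 46.4% of members tested were called higher and 13.9% lower, against 14.0% and 40.3% of all genes.

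At GV no member was called by limma out of 283 tested, and 0.0430% of 11635 genes were, 0.00859% as higher and 0.0344% as lower. At an unadjusted p under 0.05 there were 59 members (20.8%), against 11.8% of all genes tested. The median difference was -0.13 over the members and -0.08 over all genes. Without knockout GV replicate 3, the library that stood apart, 62 members were called lower and 6 higher, and 8.97% of all genes were called. The libraries of the genotypes did not overlap for 75 members (26.5%), against 23.0% of all genes tested. Wild-type GV levels alone brought in 17 members and knockout GV levels alone 5, which favours a lower knockout value. These GV counts and shares of members are therefore a description. Gm15389, which is named for its PN5 value, was at 34.9, 40.4 and 43.7 FPKM in wild type against 3.17, 8.64 and 11.7 FPKM in knockout GV libraries. Its groups did not overlap, and it did not pass the test.

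At MII 7 of 231 members tested were called, 2 higher and 5 lower, beside 2.28% of 8739 genes, 0.320% higher and 1.96% lower. Of the 226 tested that reached 10 FPKM at another stage, 6 were called. Gm10076 was lowest against wild type, at 9.13, 11.2 and 6.47 FPKM with Nlrp14, against 1.66, 0.815 and 1.23 FPKM (log2 difference -2.14, SE 0.232, adjusted p = 0.011). This gene is uncertain, since its 1 exon is 99.5% identical to Rpl41, a ribosomal protein gene, whose MII means were 3.75 FPKM with Nlrp14 and 0.996 FPKM without. Gm45659, which carries the second shared 5′ sequence, was lower by a log2 difference of -1.36, Gm32635 by -1.34, AC127234.1 by -1.08 and Gm11587, a member through its wild-type MII mean alone, by -0.94. The members higher in knockout were AC132253.6, at 13.6, 11.6 and 14.3 against 31.1, 42.2 and 47.7 FPKM (log2 difference 1.53), and Gm11846, which carries the first shared 5′ sequence, at 11.8, 10.3 and 10.1 against 20.8, 31.6 and 22.8 FPKM (1.13). In all 7 the libraries of the genotypes did not overlap. Over the members tested, the genotypes did not overlap for 69 (29.9%), against 34.5% of all genes. Single libraries decided this count: without knockout MII replicate 1 it was 70, without wild-type MII replicate 1 or knockout MII replicate 3 it was 0, without wild-type MII replicate 2 or 3 it was 1, and without knockout MII replicate 2 it was 4.

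At PN5 the members were lower in the knockout. Of 250 tested, 70 were called lower and none higher, beside 6.10% of 9483 genes called, 5.53% as lower and 0.569% as higher. Of the 246 tested that reached 10 FPKM at another stage, 68 were called lower (27.6%). The median difference was -0.81 over the members and 0.01 over all genes, and 222 of the 250 were below 0. The libraries of the genotypes did not overlap for 166 of the 250 members (66.4%), against 40.1% of all genes tested. Of the 232 with a mean of 1 FPKM or more in both genotypes, 61 were called lower.

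The calls at PN5 did not hold under every setting, while the direction did. With median-of-ratios scaling 2 members were called and with TPM 3, at medians of -0.81 and -0.68 (all genes 0.01 and 0.19). Without any 1 of the 3 knockout libraries, or without wild-type PN5 replicate 2, no member was called, at medians between -0.90 and -0.75. Without wild-type PN5 replicate 3, 134 members were called lower and 7 higher. Each adjusted p for a single member at PN5 is from the fit of all 6 libraries.

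Gm31717 on chromosome 8 had the largest difference, at 15.7, 18.6 and 14.6 FPKM with Nlrp14, against 2.10, 1.85 and 1.84 FPKM without it at PN5 (log2 difference -2.55, SE 0.214, adjusted p = 0.0053). It passed the test under 10 of 15 settings, and Gm43263 under 7 of 15. Gm15389 did so under 3 of the 11 settings that tested it and Gm47804 under 5 of 11. Gm43263 was at 80.1, 58.3 and 31.9 against 9.87, 8.29 and 12.1 FPKM (-2.30, adjusted p = 0.031). Gm15389, already low in knockout GV libraries, was at 11.7, 2.94 and 6.32 against 0, 0.929 and 0.616 FPKM (-2.29, adjusted p = 0.037). Gm47804 was at 6.02, 2.44 and 3.35 FPKM in wild type and was listed at 0 in all 3 knockout libraries, so no fold is given (adjusted p = 0.029). In these 4 genes the genotypes did not overlap at PN5. 4933439N14Rik, the member nearest the threshold, was at 13.4, 9.21 and 7.40 against 2.34, 0.949 and 1.23 FPKM. It is a member through its wild-type PN5 mean alone, so this is a description. Of the 12 most abundant members, 4 were called lower at PN5, namely AA545190 (-1.13), Gm11381 (-1.34), 1700018B24Rik (-1.81) and Gm36307 (-1.35). Gm3143 had a difference of -1.05 and an adjusted p of 0.051. The direction was not shared by all: Gm839, C86187, Gm1965 and Gm1070 had differences of 0.08, 0.49, 0.80 and 1.59, none past the test.

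Of the 87 cleared members tested at PN5, 33 were called lower, with a median of -1.05, and 86 of the 87 were below 0. Of the 74 members at 10 FPKM at all wild-type stages, 24 were called lower, with a median of -0.86. These 74 were chosen in part by their wild-type PN5 level, which favours a lower knockout value, so this is a description. In the group of the first shared 5′ sequence 7 of 26 tested were called lower and 24 of 26 were below 0. Over all 250 members tested 70 were called lower, and 5.53% of all genes tested were. The share called in this 5′ group was close to that of all members.

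At the 2-cell stage more members were higher in the knockout than lower. Of 317 tested, 147 were called higher in the knockout and 44 lower, beside 54.3% of 13828 genes called, 14.0% as higher and 40.3% as lower. Of the 233 tested that reached 10 FPKM at an earlier stage, 123 were higher (52.8%) and 11 lower (4.72%). The median difference was 0.78 over the members and -0.44 over all genes. With median-of-ratios scaling it was 1.21 against -0.02, and 200 members were called higher and 22 lower. The libraries of the genotypes did not overlap for 201 members (63.4%), a share close to the 62.0% of all genes tested. Leaving out any 1 of the 6 libraries gave 157 to 186 calls.

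**Figure D4:**
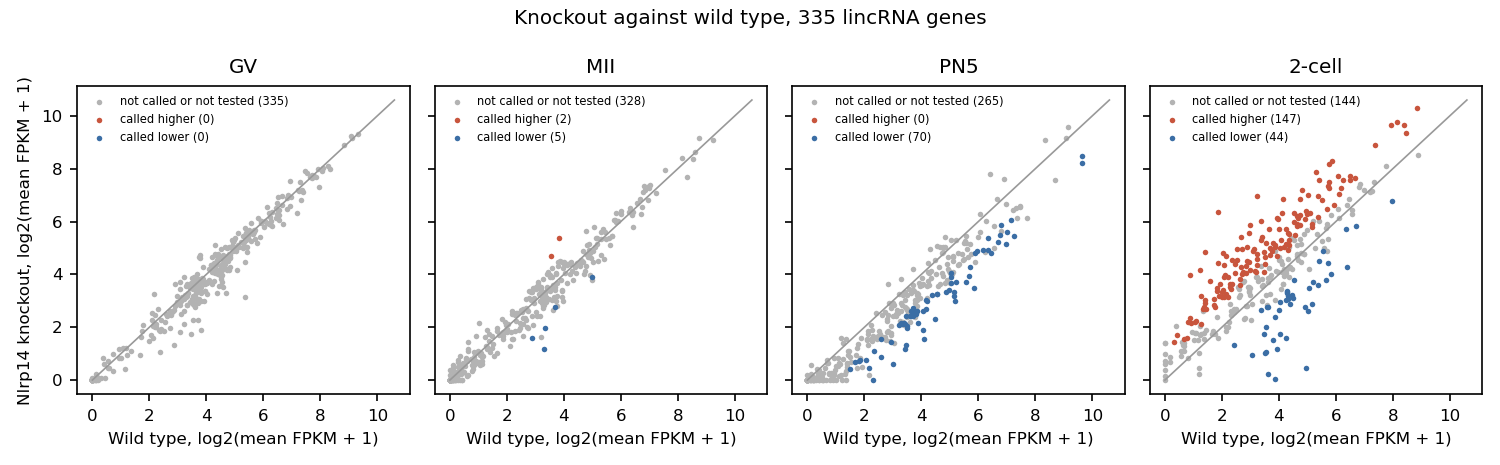
Knockout against wild-type group means, as log2(mean FPKM + 1), of the 335 members at each stage; red points were called higher and blue points lower in the knockout, and the line marks equal levels. At PN5 the 70 called members lie below the line, and at the 2-cell stage 147 lie above it and 44 below.

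Members that had reached 10 FPKM before the 2-cell stage were split by the stage of their highest wild-type mean among GV, MII and PN5, which uses no 2-cell library. Of those highest at GV, 75 of 142 tested were called higher (52.8%) and 8 lower. Of those highest at MII, 15 of 30 were higher and 1 lower, and of those highest at PN5, 33 of 61 were higher (54.1%) and 2 lower. The differences between these 3 sets were not tested. Of the 88 cleared members tested, 52 were higher and 6 lower (median 1.08), and of the 74 at 10 FPKM at all wild-type stages, 39 were higher and 3 lower (median 0.83). The 74 were chosen in part by their wild-type 2-cell level, so their counts are a description. Of the 70 members called lower at PN5, 69 were tested at the 2-cell stage, and 42 of these were higher and 3 lower there. Of all genes tested, 14.0% were higher and 40.3% lower. The share of these members called higher was not far above the 52.8% and 54.1% of the sets highest at GV and PN5. The 2 comparisons use different libraries, and a link between their results was not tested.

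Gm34045 on chromosome 10 had the largest rise. In 2-cell embryos it had 3.04, 1.77 and 3.18 FPKM with Nlrp14 and 92.4, 84.4 and 66.2 FPKM without (log2 difference 4.50, SE 0.243, adjusted p = 0.00013). At GV the same gene was at 28.3, 24.9 and 22.5 against 20.8, 25.5 and 28.6 FPKM, with the genotypes overlapping. Gm47514 was at 1.89, 0.6503 and 0 against 14.1, 17.2 and 13.1 FPKM (3.22). Both were at 10 FPKM or more in GV oocytes of both genotypes and were called in all 15 settings. Gm45593, which carries the second shared 5′ sequence, was at 7.19, 8.91 and 9.39 against 168, 126 and 79.95 FPKM (3.67). Gm11482 was at 1.00, 3.01 and 0.909 against 29.7, 31.95 and 21.3 FPKM (3.51). These 2 are members through their knockout 2-cell mean alone, so their values are a description. Their knockout libraries were all at 0 before that stage.

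Other abundant members rose with them. AC166350.2 went from 27.2 to 145 FPKM in group means (log2 difference 2.42), Gm43303 from 53.3 to 288 FPKM (2.45), Gm36307 from 31.2 to 127 FPKM (1.98), Gm3143 from 246 to 805 FPKM (1.73), Gm11381 from 279 to 862 FPKM (1.70) and AA545190 from 457 to 1270 FPKM (1.56). 1700018B24Rik, the member with the highest wild-type GV mean, did not pass the test, with means of 154 and 143 FPKM. The sum of the oocyte markers given above was also higher in these knockout libraries. Of the 10 markers, 7 were called higher and 1 lower, beside 14.0% and 40.3% of all genes. The lower one was Zp3, with means of 67.1 FPKM in wild type and 21.8 FPKM in knockout. The part of these markers in the members' rise was not tested.

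**Figure D5:**
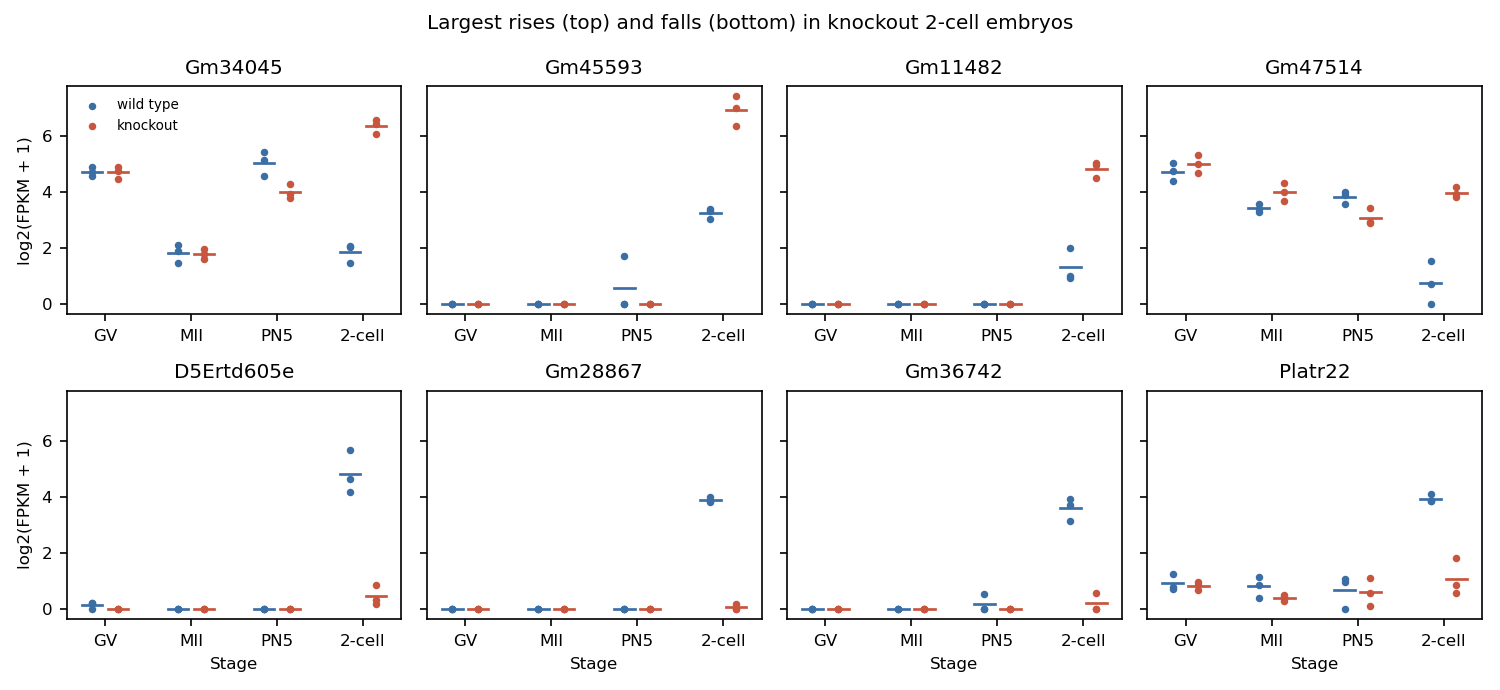
Level in every library, as log2(FPKM + 1), of the 4 members with the largest rise (top) and the 4 with the largest fall (bottom) in knockout 2-cell embryos, by stage; blue is wild type, red is knockout, points are libraries and short lines are means. The 4 falling members reach 7.75 to 49.9 FPKM in wild-type 2-cell libraries and stay at 2.48 FPKM or less in knockout ones.

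The 4 members with the largest falls were all under 1 FPKM in wild type before the 2-cell stage. They are members through their wild-type 2-cell mean alone, so the lower knockout levels below are a description, with no test. D5Ertd605e on chromosome 5 had 49.9, 23.7 and 16.8 FPKM with Nlrp14 and 0.812, 0.238 and 0.113 FPKM without (log2 difference -4.38). Gm28867 on chromosome 1 was at 13.03, 13.3 and 14.8 FPKM in wild type, and in knockout it was listed at 0 in 2 libraries and at 0.112 FPKM in the other. Gm36742 was at 7.75, 14.04 and 12.1 against 0, 0 and 0.491 FPKM. Platr22, named for transcripts associated with pluripotency, was at 15.96, 13.3 and 13.3 against 0.776, 0.476 and 2.48 FPKM (-2.86). For Gm28867 and Gm36742 no fold is given, since most knockout libraries were at 0. No library of one genotype reached the other in these 4 genes.

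In wild type 40 members were under 1 FPKM at GV, MII and PN5 and at 10 FPKM or more at the 2-cell stage. In knockout 19 of these 40 were lower and 6 higher, shares near the 40.3% and 14.0% of all genes tested. Their median was -0.79 against -0.44 over all genes. Their choice by the wild-type 2-cell level favours a lower knockout value, so these counts are a description. The 12 with the second shared 5′ sequence had 2 called lower and 2 higher, with a median of 0.06. The 28 without it had 17 called lower and 4 higher, with a median of -1.54 (-1.04 with median-of-ratios scaling). Both sets were chosen by the same wild-type level, and the difference between them was not tested. Gm48306 fell from 83.3 to 18.5 FPKM (-2.18) and F730035P03Rik rose from 26.1 to 114 FPKM (2.08), both chosen after their values were seen. B020004C17Rik, the most abundant of the 40, did not pass the test (473 and 364 FPKM, log2 difference -0.42, SE 0.232, adjusted p = 0.16).

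The change between stages was then compared between genotypes. From GV to MII 1 of 284 members tested differed, beside 0.120% of 12478 genes, 0.0481% toward higher and 0.0721% toward lower. It was Gm10076, which fell by 2.52 in wild type and by 4.96 in knockout (difference -2.43, SE 0.314, adjusted p = 0.015), with the same uncertainty about Rpl41. Without knockout GV replicate 3 its difference was -2.25 (adjusted p = 0.0067) and 5 members were called, 4 toward higher and 1 toward lower. Without any 1 of the 3 wild-type GV libraries, wild-type MII replicate 1 or 2, or knockout MII replicate 3, none was. From MII to PN5 52 of 257 differed, 51 of them toward a lower knockout level and 1 toward a higher one, beside 7.45% of 10190 genes, 4.59% and 2.86% in those directions. The exception was Gm1070, which fell by 2.10 in wild type and rose by 0.24 in knockout (difference 2.34, SE 0.575, adjusted p = 0.045). Its PN5 levels were 35.5, 85.4 and 131 FPKM, against 237, 204 and 231 FPKM in the knockout. Gm47804, Gm36480 and Gm31925 had the largest differences toward a lower knockout level (-2.20, -2.14 and -2.11). Leaving out 1 library gave between 0 and 125 calls. There were none without any 1 of the knockout PN5 or wild-type MII libraries, knockout MII replicate 2 or 3, or wild-type PN5 replicate 2, 6 without wild-type PN5 replicate 1, 105 without knockout MII replicate 1 and 125 without wild-type PN5 replicate 3.

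From PN5 to the 2-cell stage 212 of 330 members differed, 188 toward a higher and 24 toward a lower knockout level, beside 45.8% of 14986 genes, 13.8% and 31.9% in those directions. Of the 239 tested that reached 10 FPKM at GV or MII, 162 differed toward higher and 2 toward lower. The median difference in change was 1.39 over the members and -0.43 over all genes. Gm34045 fell by 3.19 in wild type and rose by 2.34 in knockout (difference 5.53, SE 0.374, adjusted p = 1.1e-05). Gm31717 fell by 2.76 in wild type and rose by 1.33 in knockout (4.09). In the group of the first shared 5′ sequence 19 of 27 differed toward higher and none toward lower (median 1.83). In the group of the second, 3 of 21 did and 1 differed toward lower (median 0.22). This comparison shares its PN5 and 2-cell libraries with the comparisons of genotype at those stages, so it is no separate evidence of them. Leaving out any 1 of the 12 libraries gave 185 to 217 calls.

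Of the listed noncoding RNA genes with a known name or role, 5 were members. Snhg10 and Snhg18 are named as small nucleolar RNA host genes. Snhg10 was at 23.3, 16.4 and 15.6 against 10.5, 10.03 and 5.90 FPKM in 2-cell embryos (log2 difference -0.998). It is a member through the wild-type 2-cell mean alone, as is Mir17hg below, so the values of both are a description. Snhg18 was at 12.04, 18.5 and 23.1 against 17.6, 13.7 and 14.9 FPKM, with the genotypes overlapping (adjusted p = 0.63). Over the whole list of snoRNA host and growth genes, 11 of 14 tested were called lower in knockout 2-cell embryos and none higher, beside 40.3% and 14.0% of all genes. The list had a median of -0.99 against -0.44 over all genes. With median-of-ratios scaling 5 were called lower and the median was -0.52 against -0.02. At GV, MII and PN5 no gene of the list was called.

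Mir17hg, the host transcript of the microRNA cluster that includes Mir17, had 12.2, 7.20 and 13.1 FPKM in wild-type 2-cell libraries, against 0.922, 0.944 and 1.34 FPKM (log2 difference -2.48). Its exons hold 6 annotated microRNA genes, so mature microRNAs are not what was measured. On the list of nuclear and housekeeping transcripts, 3 of 8 tested were lower and 1 higher at the 2-cell stage, shares close to the 40.3% and 14.0% of all genes. C86187, on the list of oocyte and embryo transcripts with Platr22, was at 301, 455 and 293 against 722, 600.4 and 643 FPKM (0.93, adjusted p = 0.0064). On that list 3 of 8 tested were lower, again close to the share of all genes, and 2 were higher. None of the 12 genes of imprinting and X inactivation measured reached 1 FPKM in the mean of any group, and none was tested.

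The members' transcripts were spliced in 324 of 335 cases, and the longest had a median of 797 nt (217 to 4072 nt) and 46.0% GC. Other lincRNA genes had a median of 959 nt and 45.9% GC, and 92.8% were spliced. Members lay a median of 46901 nt from the nearest coding gene. For 13 of them a coding gene started within 1000 nt on the other strand, among them Snhg10 beside Glrx5 and Snhg18 beside Sema5a. Of these 13, 12 were tested at the 2-cell stage, with 5 higher and 3 lower in knockout, against 46.4% higher and 13.9% lower of all members tested. Chromosome 13 held most members, 33, and chromosome 11 fewest, 5. Near-identical copies elsewhere in the genome (at least 95% identity over at least 50% of the transcript) were found for 27 members, exon overlap on the same strand for 7 and on the other strand for 27, and the levels of all these are uncertain. Without the 27 members that have a copy, 178 members were called at the 2-cell stage, 140 higher and 38 lower, and 64 at PN5, all lower.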

How the data were processed

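Each library was a pool of 5 oocytes or embryos. Per the labels' protocol it was amplified from total RNA with the SMART-Seq HT kit, without a step that marks strand. Whether RNA without a poly(A) tail was copied, and whether tail length differed between stages, was not examined. The authors deposited 1 table of FPKM per library, made with StringTie on GRCm38, per the submitters' processing notes; the aligner and annotation are not given in the sources used here. FPKM were analysed as deposited. Of 55487 gene IDs, 55227 matched GENCODE M21, which gave symbol, biotype and transcripts. Depth was estimated from the smallest steps of FPKM in 34257 genes with 1 transcript; 98.83 to 99.21% of low values were whole multiples of 1 fragment, within 0.02. No 2 libraries were identical.

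Tests used limma 3.58.1 (R 4.3.3, trend and robust) on log2(FPKM + 1), over every gene that 3 or more libraries held at 1 FPKM or more, with Benjamini-Hochberg adjustment over all of them, on the libraries of each comparison. There were 10 comparisons. The fits were tested on simulated data. 5′ ends were compared with BLAST 2.17.0. Members, lists and tests were chosen with earlier results of these data known. Members named were the 12 with the highest mean, the largest called changes per comparison (4 each way, or all if 8 or fewer; 3 each way for differences in change), those on lists of known noncoding RNAs, and those at the threshold; others are said to be chosen after their values were seen. Replicate numbers did not pair libraries (deviations correlated at r = -0.34 to 0.19). Alternatives were pseudocount 0.1, other filters and scalings, a length trend, 1 fit of all 24 libraries, a replicate block and leaving out each library. Nothing says whether pools came from separate animals, so p-values measure the spread between these pools.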

Additional observations from a re-analysis of the deposited data

Results flagged for a closer look

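Members whose change between stages differed between genotypes, by the test of that difference (limma, log2(FPKM + 1), adjusted p under 0.05), numbered 1 from GV to MII, 52 from MII to PN5 and 212 from PN5 to the 2-cell stage. Single members carried differences, as knockout change minus wild-type change, of -2.43 for Gm10076 from GV to MII. From MII to PN5 they were 2.34 for Gm1070, -2.20 for Gm47804, -2.14 for Gm36480 and -2.11 for Gm31925. From PN5 to the 2-cell stage they were 5.53 for Gm34045, 4.24 for Gm45593 and 4.09 for Gm31717, and -4.38 for D5Ertd605e, -3.83 for Gm28867 and -3.21 for Gm36742. D5Ertd605e, Gm28867 and Gm45593 were listed at 0 in all knockout PN5 libraries, as were Gm47804 and Gm36742, so these values depend on the pseudocount and are no folds. D5Ertd605e, Gm28867, Gm36742 and Gm45593 are members through 2-cell levels of 1 genotype alone, which the difference also uses, so their values are a description. Groups of 3 libraries were not tested for single libraries far from the others.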

How the results depend on the processing

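Counts of members called are given per alternative. Between knockout and wild type at GV, 0 became 1 with TPM, 2 with a length trend removed and 5 in 1 fit of all 24 libraries. At MII, 7 became 0 without a filter on low values, 3 with median-of-ratios scaling and 11 with a length trend removed. At PN5, 70 became 20 with pseudocount 0.1, 1 without a filter, 2 with median-of-ratios scaling, 3 with TPM and 120 in the fit of all 24 libraries. For the wild-type step from MII to PN5, 67 became 35 without a filter and 41 with TPM, and from PN5 to the 2-cell stage 193 became 114 over members at 10 FPKM at another stage, a smaller set chosen after seeing the data. For the difference between genotypes from MII to PN5, 52 became 11 with pseudocount 0.1, 0 without a filter, 0 with TPM and 4 with a length trend removed. From GV to MII the 1 member was lost (0) among members without a near-identical copy, also chosen after seeing the data, because Gm10076 has such a copy.

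Leaving out 1 library gave 0 to 68 calls at GV, 0 to 70 at MII, 0 to 141 at PN5 and 157 to 186 at the 2-cell stage. The wild-type steps gave 203 to 245, 20 to 109 and 103 to 198, and the differences between genotypes 0 to 5, 0 to 125 and 185 to 217. A group cut to 2 libraries shares its estimate of spread with the other group.

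With the replicate number as a block, which the data did not support as a pairing (deviations correlated at r = -0.34 to 0.19), calls were 0 at PN5, 0 for the difference from GV to MII and 0 for that from MII to PN5, and moved by less than 1.5 times elsewhere. None of the changes named among the largest of a comparison turned direction under any alternative in which it was tested; members named for their level, list or place at the threshold were not rerun. The cause of the other moves was not tested. Membership itself was 546 genes with TPM, 320 with median-of-ratios scaling, 506 at 5 FPKM and 225 at 20 FPKM.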
